A study of Mus musculus with 18 samples.

Results

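Macrophages that had been loaded with cholesterol before treatment with reconstituted high-density lipoprotein (rHDL) and lipopolysaccharide (LPS) were compared with macrophages that received the same rHDL and LPS without loading. The comparison used 6 of the 18 RNA-seq libraries of the study, 3 per group, chosen by their labels alone, and covered the 8965 genes with enough reads to test. All cells were grown out of the bone marrow of C57BL/6J mice and became macrophages over 7 days in L929-conditioned medium. The loaded, rHDL-treated group (CL_HDL_LPS) was given liposomes of POPC, a phosphatidylcholine, and cholesterol, then from day 8 the rHDL preparation CSL111 for 20 h, and after washing LPS. In CSL111 each apolipoprotein A-I is combined with 150 soybean phosphatidylcholine molecules, per the labels. The rHDL-treated group (HDL_LPS) had the same rHDL and LPS but no liposomes. The loaded group without rHDL (CL_Ctrl_LPS) and the group with LPS alone (LPS_Ctrl), also 3 libraries each, were used to ask whether loading acted differently when rHDL was present. An untreated group (Notr_Ctrl) and an LPS group (LPS_only) of a separate table, 3 libraries each, served only to define the genes that respond to LPS.

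The design limits what the groups can stand for. Every cell in the loading comparison received LPS, so a change in the resting level of a gene and a change in its response to LPS cannot be told apart. No group used here received liposomes without cholesterol, so cholesterol and the phosphatidylcholine of the liposomes cannot be told apart either. The amount of cholesterol, the dose and duration of LPS and the source of the replicates were not stated in the labels used, so p-values measure the spread between these libraries, which may be technical.

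Cells hold their cholesterol within narrow limits through a pair of sensors. When membrane cholesterol is low, the transcription factor SREBP-2 is carried to the Golgi, cleaved and sent to the nucleus, where it turns on cholesterol synthesis and uptake, and when cholesterol is high the INSIG proteins keep it in the endoplasmic reticulum. When oxysterols accumulate, the nuclear receptors LXR alpha and LXR beta turn on the export pumps ABCA1 and ABCG1, which hand cholesterol to apolipoprotein A-I and HDL. Macrophages rely on these pumps because they take up lipoproteins and cell debris freely, and rHDL is used to draw cholesterol out of them.

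The loaded, rHDL-treated libraries held 10065054 to 12285431 counts and the rHDL-treated libraries 12666846 to 15607889. Libraries of 1 group correlated at 0.98824 to 0.9952 on the log2 CPM scale, and counts of every pair differed by more than sampling noise (chi-square of 3.001 to 27.88 per degree of freedom). The cells carried macrophage markers: Emr1, Csf1r, Lyz2 and Mertk were measured in every library, while Itgam and Trem2 had no counts in either group of the comparison. Reads that overlap more than 1 annotated transcript are missing from the counts, so a count of 0 need not mean that a gene was silent. For the same reason Hmgcs1 of the sterol pathway, among others, could not be measured. A value in CPM is a count scaled to library depth with TMM, ± is the SD for a CPM and the standard error for a log2 change, and n = 3 libraries per group throughout. A gene was called changed at a Benjamini-Hochberg adjusted p under 0.05 in edgeR's quasi-likelihood test over all 8965 genes. In bulk RNA, fewer cells of a type and less RNA per cell cannot be told apart.

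Loading moved a large part of the transcriptome of rHDL-treated cells in both directions. Of 8965 genes 1659 were higher (18.5%) and 1537 were lower (17.1%) in loaded, rHDL-treated cells than in rHDL-treated cells, 35.6% in all. Counts for the gene lists below are to be read beside these shares. Changes of at least 2-fold were found for 443 of the higher and 254 of the lower genes, and the median over all genes was -0.01 on the log2 scale. When libraries were scaled by their totals only, 1304 genes were higher and 2009 lower, with a median of -0.10, so small changes take their sign in part from the scaling. Without rHDL, 768 genes passed the same threshold (8.57%), 358 higher (3.99%) and 410 lower (4.57%). The loading effect itself differed between cells with and without rHDL for 2704 genes (30.2%), of which 1432 had a more positive effect with rHDL (16.0%) and 1272 a more negative one (14.2%). With scaling by library totals these were 1016 and 2124.

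Genes of cholesterol synthesis fell together. All 7 measured genes of the mevalonate pathway, which builds the isoprenoid precursors of sterols, fell in loaded, rHDL-treated cells, with a median log2 change of -2.19. So did all 12 genes of the later steps, which close the ring system and trim it to cholesterol, with a median of -2.75.

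Enzymes of the isoprenoid and squalene steps followed. Idi1, which interconverts the basic isoprenoid units, had 3.54, 5.15 and 3.83 CPM in loaded, rHDL-treated cells, against 37.8, 36.5 and 37.9 CPM in rHDL-treated cells. Fdft1, squalene synthase, had 8.21, 10.4 and 8.26 CPM, against 79.0, 74.6 and 74.0 CPM in rHDL-treated cells. Both groups of values were tight and far apart for either gene, with log2 changes of -3.17 ± 0.16 for Idi1 and -3.09 ± 0.14 for Fdft1. Fdps, farnesyl diphosphate synthase, was measured on 14.8% of its exon bases only and had 8 counts over the 3 loaded, rHDL-treated libraries and 85 over the 3 rHDL-treated ones.

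Squalene epoxidase, Sqle, a rate-limiting step, had 17.5, 19.1 and 15.2 CPM in loaded, rHDL-treated cells, against 157, 147 and 153 CPM in rHDL-treated cells. Cyp51, lanosterol demethylase, had 34.5, 38.2 and 31.9 CPM, against 329, 297 and 307 CPM in rHDL-treated cells. The log2 changes of Sqle and Cyp51 were -3.15 ± 0.13 and -3.16 ± 0.10. The smallest falls of the list were those of Ebp (-0.48 ± 0.11) and Lbr (-0.47 ± 0.09), a sterol isomerase and a reductase that is also part of the nuclear envelope.

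The same genes were also followed without rHDL. Cyp51 stood at 34.9 ± 3.16 CPM in loaded, rHDL-treated cells and 311 ± 16.5 CPM in rHDL-treated cells, and without rHDL at 14.7 ± 1.48 CPM in loaded cells and 136 ± 17.5 CPM with LPS alone. Its loading effects, -3.16 ± 0.10 with rHDL and -3.20 ± 0.11 without, did not pass the test for a difference (0.05 ± 0.15, adjusted p = 0.847). Neither did 10 others of the 19 measured genes of the 2 lists, such as Idi1, Sc5d, Fdft1 and Hsd17b7. The remaining 8 had a more negative loading effect with rHDL, among them Sqle, Lss, Msmo1 and Nsdhl. For Lss, lanosterol synthase, the change was -3.08 ± 0.19 with rHDL and -1.11 ± 0.20 without, a difference of -1.96 ± 0.28 (adjusted p = 0.000149).

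**Figure D1:**
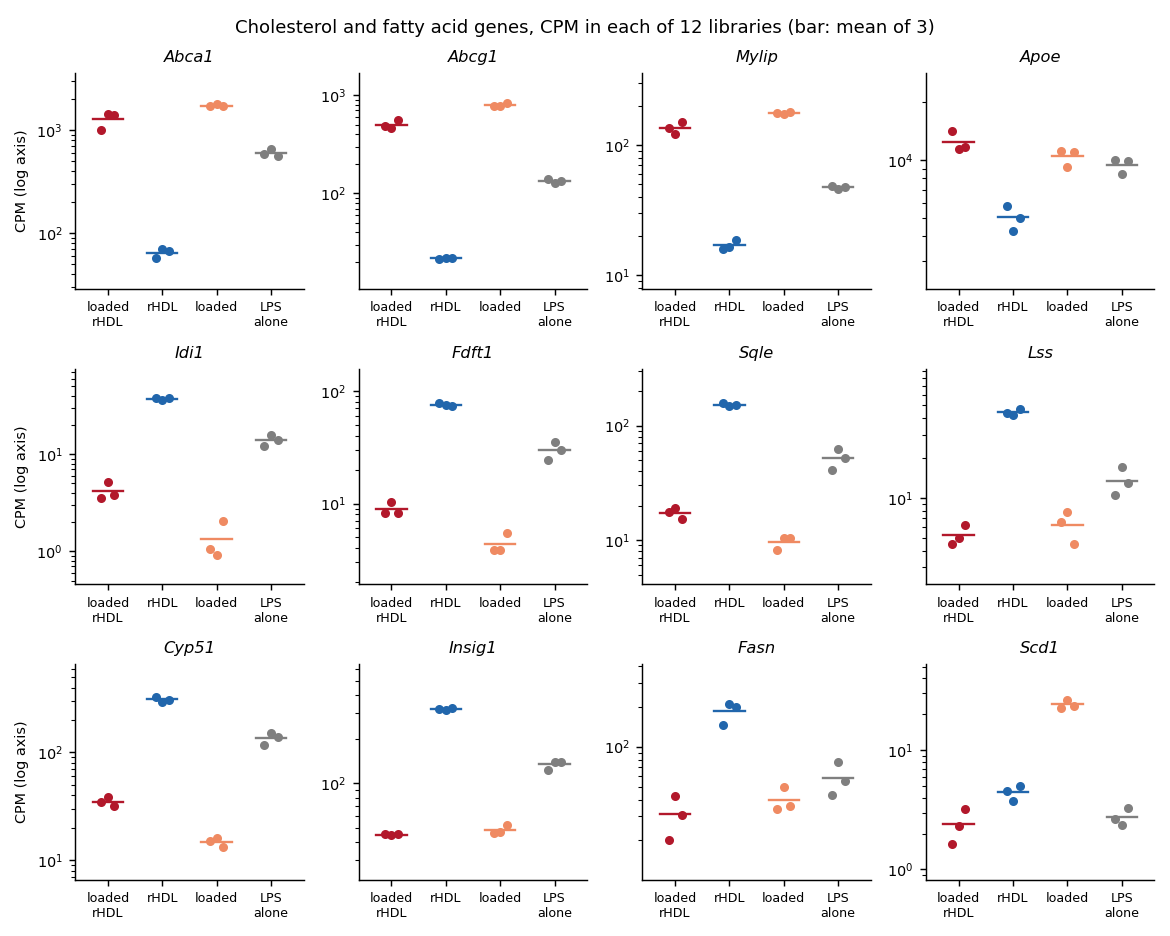
CPM of 12 genes of cholesterol and fatty acid metabolism on a log axis, 1 point per library and a bar at the mean of 3, in loaded and rHDL-treated, rHDL-treated, loaded, and LPS-alone macrophages, all with LPS. Abca1, Abcg1, Mylip and Apoe are lowest in rHDL-treated cells, and the sterol genes Idi1 to Insig1 are highest there. Scd1 is highest in loaded cells without rHDL.

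Sensors and carriers of sterols moved with the synthesis genes. Of 8 measured genes 5 fell and none rose. The median was -1.09. Insig1, the retention factor of SREBP-2 and one of its targets, had 44.9, 44.2 and 45.2 CPM in loaded, rHDL-treated cells, against 319, 318 and 323 CPM in rHDL-treated cells, a log2 change of -2.84 ± 0.07. Srebf2, the gene of SREBP-2 itself, had 135, 170.0 and 165 CPM, against 433, 446 and 454 CPM in rHDL-treated cells (-1.50 ± 0.09). Stard4, a cytosolic sterol carrier, fell by 3.04 on the log2 scale, Tmem97 by 1.98 and Npc1, the lysosomal cholesterol transporter, by 0.67. Srebf1 (-0.16 ± 0.07), Mbtps2 (-0.06 ± 0.07) and Npc2 (0.19 ± 0.09) did not pass the test. With the replicate number as a block Srebf1 was called lower (adjusted p = 0.0257) and Npc2 higher (adjusted p = 0.00484), so that 1 gene of the list rose and 6 fell. Srebf1 was also called without CL_HDL_LPS replicate 2 (0.027) and with scaling by library totals (0.0395), and Npc2 without HDL_LPS replicate 1 (0.0223) or CL_HDL_LPS replicate 2 (0.0426).

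The promoters of these genes were read for known elements, as a description only. RefSeq promoters of build GRCm38.p6, from 250 bases before to 50 after the start, were matched by symbol to 6810 of the 8965 genes tested and to 14 of the 19 sterol synthesis genes that fell. Some genes had several promoters, and a gene was counted as holding a motif if any of its promoters did. The letters CCAAT, the binding motif of NF-Y, a factor known to act beside SREBP, were found for 13 of these 14 genes (92.9%), on either strand. The shares were 41.6% of the tested genes with a promoter and 41.1% of all 27025 genes with one. Of the 13, Dhcr7 and Pmvk also had promoters without these letters. The sterol response element as TCACNCCAC was found for 0 of the 14 genes and for 1.17% of the tested genes with a promoter. These exact letters are thus not in these windows. Among genes with a promoter, the E-box CACGTG was found for 17.3% of those that fell, 9.26% of those that rose and 11.8% of all tested. None of the motifs overlapped another in the sequences shown. The 250 bases before the start of 2 sterol genes with large falls are given 5′ to 3′ on the gene's strand, with CCAAT or its reverse complement in capitals.
Idi1, GRCm38.p6 chr13:8885356-8885605, plus strand: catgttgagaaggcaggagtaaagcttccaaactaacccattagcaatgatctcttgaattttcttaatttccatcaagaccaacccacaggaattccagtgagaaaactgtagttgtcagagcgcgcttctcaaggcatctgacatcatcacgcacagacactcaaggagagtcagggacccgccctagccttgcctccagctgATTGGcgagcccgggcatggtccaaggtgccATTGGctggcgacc
Cyp51, GRCm38.p6 chr5:4104698-4104947, minus strand: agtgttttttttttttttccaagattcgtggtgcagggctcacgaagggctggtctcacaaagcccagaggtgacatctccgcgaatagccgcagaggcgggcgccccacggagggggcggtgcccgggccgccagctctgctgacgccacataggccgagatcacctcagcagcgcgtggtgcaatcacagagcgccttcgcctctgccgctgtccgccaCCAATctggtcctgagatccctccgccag
In Idi1 the motif began at -45 and -14 relative to the start, both on the minus strand of the gene, and in Cyp51 at -29 on its plus strand.

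LXR targets held the 2 largest rises among all genes tested. Of 14 measured genes of the LXR list 9 rose and 2 fell, with a median log2 change of 1.03, and with the block 3 fell. Abcg1, the pump that passes cholesterol to HDL (mm10 chromosome 17, 31057694 to 31117981, plus strand), had 481, 467 and 554 CPM in loaded, rHDL-treated cells, against 21.4, 21.9 and 22.1 CPM in rHDL-treated cells. Abca1, the pump that lipidates free apolipoprotein A-I (mm10 chromosome 4, 53030789 to 53159895, minus strand), had 1014, 1435 and 1398 CPM, against 58.0, 69.7 and 67.3 CPM in rHDL-treated cells. The groups were far apart for both, with log2 changes of 4.52 ± 0.08 for Abcg1 (adjusted p = 8.99e-14) and 4.30 ± 0.13 for Abca1 (adjusted p = 2.05e-11).

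Abca1 was the single gene of the 7 LXR risers with a matched promoter whose window held the LXR element, a spaced direct repeat searched on both strands, on the minus strand and starting at -67. It was also in a window of Srebf1 of the same list, which did not rise. Among genes with a promoter, this element was found for 0.16% of those that rose and 0.262% of those that fell. It was found for 0.191% of all tested genes with a promoter and for 0.226% of all genes with one. Its 15 letters are in capitals in the 250 bases before the start of Abca1, shown because the gene had the second largest rise.
Abca1, GRCm38.p6 chr4:53159896-53160145, minus strand: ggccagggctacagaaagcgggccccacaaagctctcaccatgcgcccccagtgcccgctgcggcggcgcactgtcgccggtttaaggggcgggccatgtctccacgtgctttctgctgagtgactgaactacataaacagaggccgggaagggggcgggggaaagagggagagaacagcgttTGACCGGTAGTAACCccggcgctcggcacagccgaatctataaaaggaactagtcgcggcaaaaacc
A match of letters does not show that a factor binds there.

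The pumps were also measured without rHDL. Abca1 averaged 1743 ± 49.4 CPM in loaded cells without rHDL and 603 ± 46.8 CPM with LPS alone, and Abcg1 801 ± 32.8 and 134 ± 5.48 CPM. Loaded, rHDL-treated cells stood at 1282 ± 234 CPM for Abca1 and 501 ± 46.9 CPM for Abcg1, and rHDL-treated cells at 65.0 ± 6.15 and 21.8 ± 0.385 CPM. The effect of loading was more positive with rHDL by 2.77 ± 0.16 for Abca1 (adjusted p = 1.71e-07) and by 1.94 ± 0.11 for Abcg1 (adjusted p = 1.33e-07).

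Other LXR targets rose less. Mylip, a ubiquitin ligase, had 134, 122 and 149 CPM in loaded, rHDL-treated cells, against 15.7, 16.5 and 18.5 CPM in rHDL-treated cells (3.00 ± 0.09). The apolipoproteins Apoc2 (3.13 ± 0.24) and Apoe (1.29 ± 0.12), the phospholipid transfer protein Pltp (1.60 ± 0.06) and the secreted scavenger-family protein Cd5l (2.33 ± 0.15) rose as well. Apoe is abundant, with 14037, 11313 and 11588 CPM in loaded, rHDL-treated cells, against 5769, 4295 and 4993 CPM in rHDL-treated cells. Its level without rHDL was 10410.0 ± 1061 CPM in loaded cells and 9427 ± 842 CPM with LPS alone, and its loading effect was more positive with rHDL by 1.15 ± 0.17 (adjusted p = 0.00017). Lpl, lipoprotein lipase, rose in both settings (0.77 ± 0.07 with rHDL and 0.77 ± 0.07 without), and the difference of 0.00 ± 0.10 did not pass the test. Srebf1, Lpcat3 and Smpdl3a did not pass the test, and the receptor genes Nr1h3 and Nr1h2 could not be measured.

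The desaturases Scd1 and Scd2 were the 2 genes of the LXR list called lower in the main fit. Scd1, which makes oleate from stearate, had 1.64, 2.33 and 3.24 CPM in loaded, rHDL-treated cells, against 4.55, 3.76 and 5.04 CPM in rHDL-treated cells, and fell (-0.88 ± 0.21, adjusted p = 0.00482). Without rHDL it rose, with 24.2 ± 1.79 CPM in loaded cells and 2.76 ± 0.463 CPM with LPS alone (3.13 ± 0.18). The effects differed by -4.01 ± 0.28 (adjusted p = 4.74e-07). Scd2 also fell with rHDL (-1.96 ± 0.30), and without rHDL its change of 0.17 ± 0.25 did not pass the test.

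Fatty acid synthesis, driven by SREBP-1 and shared with the desaturases, fell in 8 of 9 measured genes and rose in none. The median was -1.35. Fasn, fatty acid synthase, had 20.1, 42.8 and 31.0 CPM in loaded, rHDL-treated cells, against 147, 207 and 197 CPM in rHDL-treated cells, a log2 change of -2.56 ± 0.25. The replicates of Fasn spread widely but the groups did not overlap. Fads2, the delta-6 desaturase of polyunsaturated fatty acids, had 2, 1 and 1 counts in the loaded, rHDL-treated libraries, against 137, 139 and 117 in the rHDL-treated ones, 4 against 393 in all. Scaled to depth its level was 81.1-fold higher in rHDL-treated cells, with a 95% interval of 31.4 to 299 that covers counting error only. Fads1, the delta-5 desaturase, fell by 1.69 and Acaca, acetyl-CoA carboxylase, by 0.76 on the log2 scale, while Elovl5 (-0.05 ± 0.09) did not pass the test. Without rHDL the median of the list was -0.09, with Scd1 called higher and Fads2 called lower, and 6 of the 9 genes had a more negative loading effect with rHDL.

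Storage and handling of cholesterol moved in mixed directions. Of 11 measured genes of cholesterol storage and lipid droplets 3 rose and 6 fell, with a median of -0.26. The fall of Dgat1 (adjusted p = 0.0395) was not called when any library of the comparison was left out (0.0666 to 0.108). Nor was it called with DESeq2 (0.0986), without the low-count filter (0.102), with thinned counts (0.0941) or with the 6 libraries alone (0.0656). Dgat2, which makes triglycerides, had 12.4, 12.3 and 10.6 CPM in loaded, rHDL-treated cells, against 2.72, 2.44 and 2.78 CPM in rHDL-treated cells (2.15 ± 0.13). Ch25h, which makes 25-hydroxycholesterol, rose by 0.82 ± 0.14 with rHDL and fell by 0.67 without, and Cyp27a1, the 27-hydroxylase, rose by 1.07 ± 0.12. The lipid droplet coats fell: Plin2 had 595, 487 and 534 CPM, against 793, 849 and 824 CPM in rHDL-treated cells (-0.61 ± 0.08), and Plin3 changed by -0.81 ± 0.08. Fabp4, a fatty acid carrier, changed by -1.12 ± 0.11 and Nceh1, a cholesteryl ester hydrolase, by -0.57 ± 0.09. Soat1, which esterifies cholesterol, had 151 ± 3.31 CPM in loaded, rHDL-treated cells and 159 ± 6.88 CPM in rHDL-treated cells and did not pass the test (-0.07 ± 0.06).

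Scavenger receptors, which take up modified lipoproteins, rose in 4 and fell in 2 of 8 measured genes, with a median of 0.20. The fall of Scarb1 (adjusted p = 0.0433), with 26 against 66 counts, was not called with DESeq2 (0.0853) or without the low-count filter (0.0502). Nor was it called without HDL_LPS replicate 1 (0.0942), 2 (0.121) or 3 (0.0542) or CL_HDL_LPS replicate 1 (0.111) or 3 (0.159). Marco had 11.8, 10.3 and 10.5 CPM in loaded, rHDL-treated cells, against 4.30, 3.41 and 3.61 CPM in rHDL-treated cells (1.52 ± 0.15), and rose without rHDL too (2.05 ± 0.17). Stab1 rose by 1.23 ± 0.08 and Msr1, the class A receptor, by 0.69 ± 0.07. Of 12 genes of phospholipid synthesis and remodelling 4 rose and 1 fell (18.5% and 17.1% of all genes), with a median of 0.20. With the replicate number as a block 6 rose and 2 fell. The gene that fell, Pcyt2 of phosphatidylethanolamine synthesis, had 9.85, 13.4 and 11.5 CPM, against 54.2, 53.2 and 52.5 CPM in rHDL-treated cells (-2.20 ± 0.11). Lpcat1, a lysophospholipid acyltransferase, rose by 1.16 ± 0.09, and Pla2g4a, which frees arachidonate from membranes, by 1.00 ± 0.08.

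The members of 24 lists are laid out side by side in the plot of gene lists, above the range of all genes tested.

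**Figure D2:**
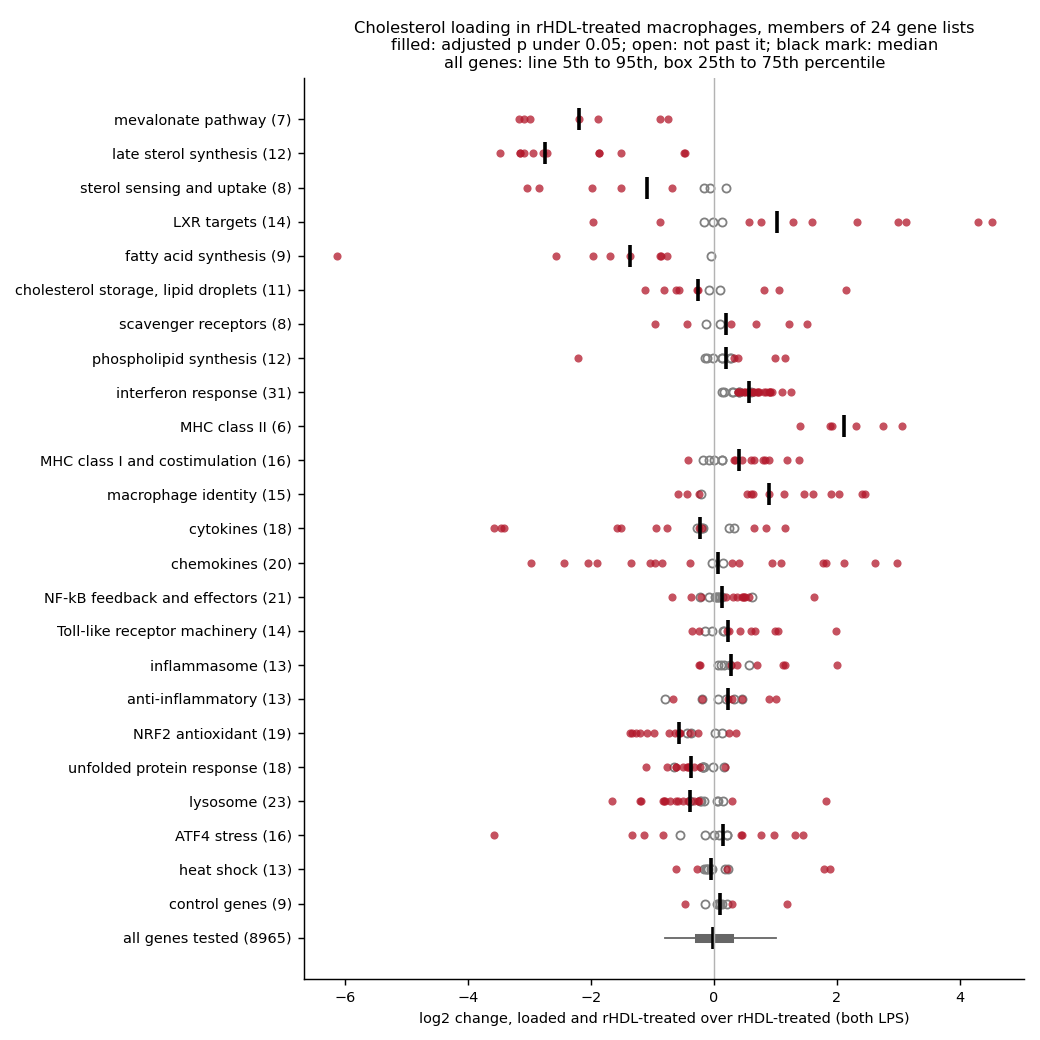
Log2 change of each measured member of 24 gene lists, loaded and rHDL-treated over rHDL-treated macrophages, with the number measured in parentheses. Filled points passed an adjusted p under 0.05, black marks are medians, and the bottom row gives the range of all 8965 genes, whose median is -0.01. The sterol lists lie left of 0 (medians -2.19 and -2.75), and MHC class II (2.12) and interferon response (0.58) lie right of it.

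Antigen presentation by MHC class II, which shows peptides to helper T cells, was higher in loaded, rHDL-treated cells. All 6 measured genes rose, with a median of 2.12. H2-Aa (mm10 chromosome 17, 34282751 to 34287771, minus strand), an alpha chain, had 842, 617 and 730.2 CPM in loaded, rHDL-treated cells, against 149.8, 77.7 and 96.7 CPM in rHDL-treated cells. H2-Eb1, a beta chain, had 559, 354 and 429.6 CPM, against 74.5, 40.8 and 45.8 CPM in rHDL-treated cells. In both groups the first library was the highest for each chain, and the groups did not overlap, with log2 changes of 2.75 ± 0.22 for H2-Aa and 3.06 ± 0.24 for H2-Eb1. H2-Ab1 rose by 2.32 ± 0.21, the peptide-loading chaperones H2-DMa by 1.92 ± 0.17 and H2-DMb1 by 1.41 ± 0.21, and Cd74, the invariant chain measured on 13.6% of its exon bases, by 1.90 ± 0.17. Without rHDL none of the 6 passed the test, and the median was -0.34. H2-Aa then averaged 649.8 ± 141 CPM in loaded cells and 877 ± 111 CPM with LPS alone, and the loading effect was more positive with rHDL for all 6 genes, by 3.19 ± 0.30 for H2-Aa (adjusted p = 4.63e-06).

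Genes of MHC class I and costimulation rose in 10 and fell in 1 of 16 measured, with a median of 0.41. Cd86, a costimulatory ligand, had 218, 150.0 and 198 CPM in loaded, rHDL-treated cells, against 109.7, 65.5 and 73.2 CPM in rHDL-treated cells (1.19 ± 0.18). Without rHDL it fell (-0.63 ± 0.18), with a difference of 1.82 ± 0.25. Nlrc5, the transactivator of class I genes, followed the same course, with 0.65 ± 0.11 with rHDL and -0.43 ± 0.10 without. Icosl rose by 0.60 ± 0.10 with rHDL and by 0.62 ± 0.10 without. Tnfsf9 was the gene that fell (-0.41 ± 0.07), and H2-K1 (-0.08 ± 0.10) did not pass the test.

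The interferon response, the antiviral programme that LPS starts through TRIF and type I interferon, was higher in most of its genes. Of 31 measured genes 24 rose and none fell (18.5% of all genes rose), the median was 0.58, and all 31 had a positive estimate. With the replicate number as a block 29 of the 31 rose, and when 1 library was left out 20 to 29 did. Oas3, a sensor of double-stranded RNA, had 952, 850.3 and 1112 CPM in loaded, rHDL-treated cells, against 623, 458 and 567 CPM in rHDL-treated cells (0.82 ± 0.13). Trim30a, a brake on Toll-like receptor signalling, had 2556, 2224 and 2623 CPM, against 1768, 1407 and 1523 CPM in rHDL-treated cells (0.66 ± 0.10). The largest changes were those of Ifi44 (1.25 log2), Ifit3 (1.12) and Usp18 (0.95 ± 0.21), a feedback inhibitor of the interferon receptor. With a minimum change of 1.5-fold in the test, 1 of the 31 genes was called.

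Among the interferon genes that did not pass were Rsad2 (0.41 ± 0.22) and Ifit1 (0.31 ± 0.17), whose libraries overlapped between the groups. Both were called higher with the block (adjusted p = 0.000423 for Rsad2 and 0.00111 for Ifit1). They were also called without the low-count filter (0.0226 for Rsad2 and 0.0442 for Ifit1). The same held without CL_HDL_LPS replicate 2 (0.0178 for Rsad2 and 0.0247 for Ifit1) and, for Ifit1, without HDL_LPS replicate 1 (0.0345). Ifnb1, the interferon beta gene, had 3.28, 1.17 and 2.21 CPM in loaded, rHDL-treated cells, against 2.40, 1.60 and 1.66 CPM in rHDL-treated cells, and did not pass (0.24 ± 0.34). Without rHDL the median of the list was -0.32, with 4 genes lower and none higher. The loading effect was more positive with rHDL for 29 of the 31 genes and more negative for none, against 16.0% and 14.2% of all genes. For Oas3 the effects were 0.82 ± 0.13 with rHDL and -0.45 ± 0.13 without, a difference of 1.28 ± 0.18 (adjusted p = 0.000138).

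Cytokines, the secreted signals of the LPS response, fell more often than they rose. Of 18 measured 3 rose and 9 fell, with a median of -0.22. Gdf15, a stress-induced member of the TGF-beta family (mm10 chromosome 8, 70629394 to 70631635, minus strand), had 78.1, 84.6 and 72.8 CPM in loaded, rHDL-treated cells, against 916, 913 and 966 CPM in rHDL-treated cells (-3.57 ± 0.12). It stood at 96.0 ± 12.2 CPM in loaded cells without rHDL and 109 ± 18.6 CPM with LPS alone, where its change of -0.18 ± 0.12 did not pass, and the effects differed by -3.39 ± 0.16 (adjusted p = 5.48e-08).

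Il23a, the p19 subunit of interleukin-23, had 2.51, 3.21 and 2.73 CPM in loaded, rHDL-treated cells, against 21.2, 44.1 and 27.8 CPM in rHDL-treated cells (-3.46 ± 0.27). Csf2, the growth factor GM-CSF, had 2.07, 2.92 and 1.11 CPM, against 14.3, 27.5 and 22.8 CPM in rHDL-treated cells (-3.42 ± 0.38). Il12b, the p40 subunit shared by interleukins 12 and 23, had 267, 218 and 277 CPM, against 422, 422 and 448 CPM in rHDL-treated cells (-0.76 ± 0.09). Il12b rose with loading when rHDL was absent, to 321 ± 25.5 CPM in loaded cells, against 176 ± 5.77 CPM with LPS alone (0.86 ± 0.09), and the effects differed by -1.63 ± 0.12. Osm (-1.57 ± 0.12), Csf3 (-1.50 ± 0.25) and Il1a (-0.94 ± 0.09) also fell, while Il18 (1.15 ± 0.17), Ebi3 (0.85 ± 0.08) and Il27 (0.66 ± 0.14) rose.

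Among other cytokines of the list, Il6, Tnf and Il10 did not pass the test in the main fit, which does not show that their levels were unchanged. Il6 had 680.2, 377 and 524 CPM in loaded, rHDL-treated cells, against 723, 539.6 and 558 CPM in rHDL-treated cells, overlapping values that did not pass the test (-0.20 ± 0.19, adjusted p = 0.436). With the replicate number as a block the estimate was -0.23 and did pass (adjusted p = 0.0446). Il1b fell slightly, with 7423, 6655 and 6220.1 CPM, against 8349, 7913 and 7596 CPM in rHDL-treated cells (-0.23 ± 0.08, adjusted p = 0.0277), but was not called with the 6 libraries of the comparison fitted alone (adjusted p = 0.0821), nor without HDL_LPS replicate 1 (adjusted p = 0.104) or 2 (0.0732) or CL_HDL_LPS replicate 2 (0.0727) or 3 (0.136). Tnf, measured on 2.9% of its exon bases, had 2.85, 3.40 and 5.88 CPM, against 3.29, 5.50 and 6.10 CPM in rHDL-treated cells, and did not pass (-0.27 ± 0.26). Il10 (-0.19 ± 0.12) did not pass with rHDL, and without rHDL it fell (-1.13 ± 0.13), a difference of 0.94 ± 0.18.

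Chemokines, which attract other white cells, split evenly, with 9 of 20 measured called in each direction, with a median of 0.06 that became -0.03 with scaling by library totals. Cxcl1, an attractant of neutrophils, had 269, 317 and 279 CPM in loaded, rHDL-treated cells, against 1849, 2544 and 2374 CPM in rHDL-treated cells (-2.97 ± 0.15). Cxcl2 had 1399.9, 1293 and 1214 CPM, against 6631, 7348 and 7132 CPM in rHDL-treated cells (-2.43 ± 0.10). Neither passed the test for loading without rHDL, where Cxcl2 averaged 1526 ± 149 CPM in loaded cells and 1516 ± 205 CPM with LPS alone, and the effects of loading on it differed by -2.44 ± 0.14 (adjusted p = 1.71e-07). Cxcl3 (-1.35 ± 0.14) and Cxcl5 (-0.95 ± 0.25) fell as well.

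The monocyte attractant Ccl2 had 262, 157 and 195 CPM in loaded, rHDL-treated cells, against 836, 823 and 863 CPM in rHDL-treated cells (-2.04 ± 0.16), and it rose with loading when rHDL was absent (0.55 ± 0.15). Ccl17 (-1.89 ± 0.15), Ccl3 (-1.03 ± 0.08), Ccl7 (-0.83 ± 0.20) and Ccl4 (-0.38 ± 0.11) completed the falling group. The interferon-induced chemokines rose: Cxcl10 had 9833, 4818 and 7678 CPM, against 4918, 3037 and 3625 CPM in rHDL-treated cells (0.95 ± 0.23), with the lowest loaded, rHDL-treated library just under the highest rHDL-treated one. Cxcl9 had 129.5, 52.7 and 116 CPM, against 35.9, 23.3 and 27.3 CPM in rHDL-treated cells (1.78 ± 0.31). Ccl24, an attractant of eosinophils, had 29.4, 25.5 and 22.7 CPM, against 3.92, 3.41 and 2.33 CPM in rHDL-treated cells (2.99 ± 0.18). Ccl8 (2.13 ± 0.31), Ccl12 (1.82 ± 0.32), Ccl5 (0.41 ± 0.12) and Ccl9 (0.30 ± 0.07) rose too, and Ppbp (2.62 ± 0.41), another attractant of neutrophils, and Pf4 (1.09 ± 0.16) were the remaining risers. Ccl4 lost its call with the 6 libraries alone (adjusted p = 0.0628) and without HDL_LPS replicate 1 (0.0838) or CL_HDL_LPS replicate 2 (0.0607) or 3 (0.0782). Ccl5 lost it without HDL_LPS replicate 2 (0.0744) or 3 (0.0653) or CL_HDL_LPS replicate 1 (0.0677).

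**Figure D3:**
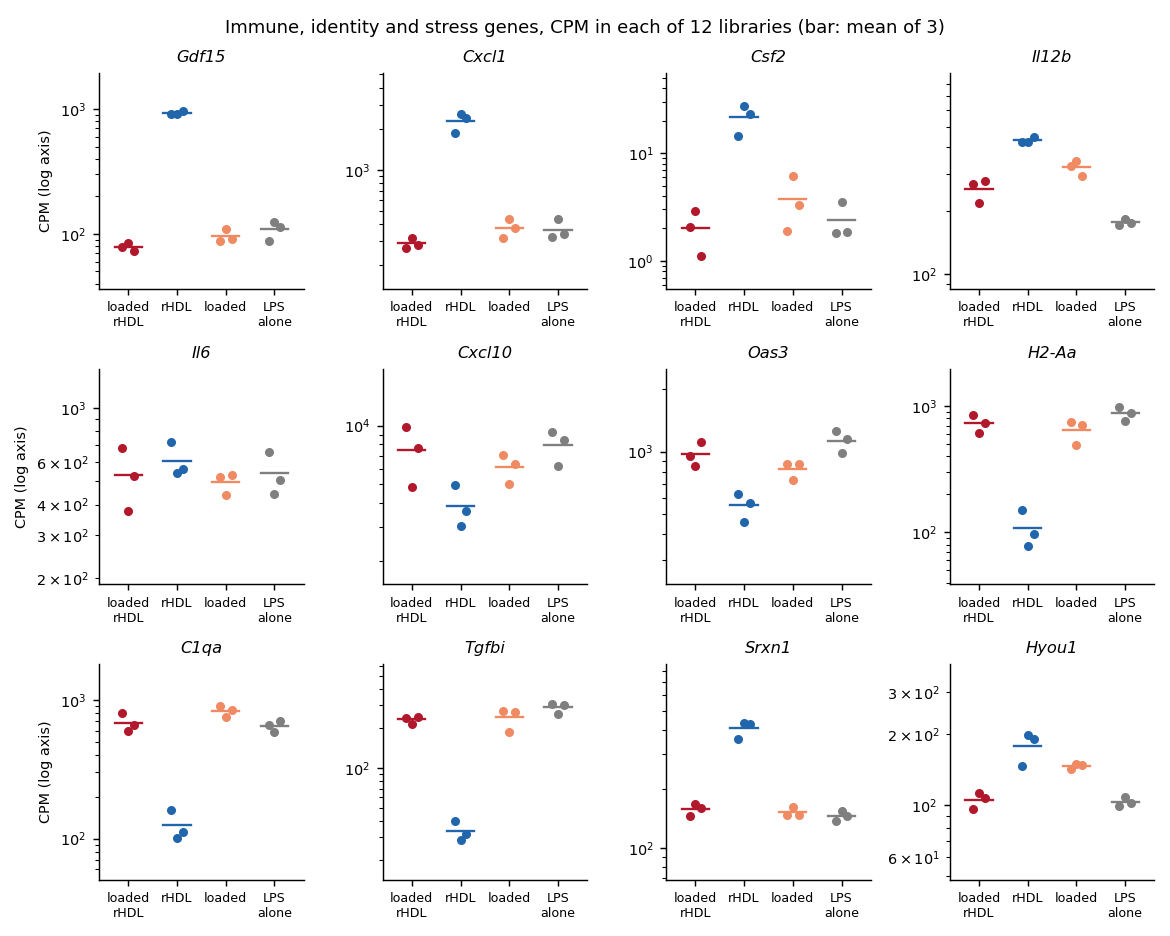
CPM of 12 immune, identity and stress genes on a log axis, 1 point per library and a bar at the mean of 3, in loaded and rHDL-treated, rHDL-treated, loaded, and LPS-alone macrophages, all with LPS. For Gdf15, Cxcl1, H2-Aa, C1qa, Tgfbi and Srxn1 the rHDL-treated libraries stand away from the other 9, while those of Il6 overlap with the others.

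Signalling genes downstream of Toll-like receptors showed smaller moves. Of 21 NF-kB feedback and effector genes 9 rose and 3 fell, with a median of 0.13. Vcam1, an adhesion molecule, had 445, 392 and 422 CPM in loaded, rHDL-treated cells, against 159, 123 and 124 CPM in rHDL-treated cells (1.64 ± 0.10). Ptgs2, the inducible cyclooxygenase, had 8704, 9035 and 8918 CPM, against 14359.8, 14030.4 and 14099 CPM in rHDL-treated cells (-0.67 ± 0.07). Nos2, inducible nitric oxide synthase, did not pass (0.11 ± 0.07). Sod2 (0.51 ± 0.08), a mitochondrial dismutase, and Irg1 (0.49 ± 0.10), which makes itaconate, rose. Of 14 genes of the receptor machinery 8 rose and 2 fell, with a median of 0.24. Tlr9, a receptor for DNA, had 23.8, 17.1 and 33.7 CPM, against 7.33, 5.22 and 6.32 CPM in rHDL-treated cells (1.98 ± 0.29), and Tlr3, a receptor for RNA, rose by 0.99 ± 0.15. Tlr4, the LPS receptor, changed by 0.22 ± 0.07 (adjusted p = 0.0221) and its co-receptor Cd14 by -0.24 ± 0.07 (adjusted p = 0.0196). Tlr4 was not called with scaling by library totals (0.239), without the low-count filter (0.0573) or with the 6 libraries alone (0.0882). Nor was Tlr4 called without HDL_LPS replicate 2 (0.0508) or 3 (0.0617) or CL_HDL_LPS replicate 2 (0.061) or 3 (0.0796). Cd14 was not called with the 6 libraries alone (0.062) or without HDL_LPS replicate 2 (0.0827) or CL_HDL_LPS replicate 3 (0.106).

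Inflammasome genes, which assemble the platform that activates caspase-1, rose in 6 and fell in 2 of 13 measured, with a median of 0.27. Of all genes 18.5% rose and 17.1% fell. With the block 8 of the list rose. The 2 that fell were Il1b and Nek7, and no gene of the list was called lower without HDL_LPS replicate 2 or CL_HDL_LPS replicate 2 or with the 6 libraries alone, and 1 was when any of the other 4 libraries was left out. Pycard, the adaptor ASC, had 106, 78.2 and 89.1 CPM in loaded, rHDL-treated cells, against 49.9, 37.1 and 37.9 CPM in rHDL-treated cells (1.13 ± 0.13). Aim2, a DNA sensor, rose by 0.70 ± 0.13 and Mefv, measured on 5.7% of its exon bases, by 2.004 on the log2 scale. Of 13 anti-inflammatory genes 5 rose and 2 fell (18.5% and 17.1% of all genes), with a median of 0.24. Of these 13, 3 rose when HDL_LPS replicate 2 or 3 or CL_HDL_LPS replicate 2 was left out or with scaling by library totals. Il4ra, the interleukin-4 receptor, had 881, 1202 and 947 CPM, against 567, 536 and 523 CPM in rHDL-treated cells (0.90 ± 0.10), and without rHDL it fell (-0.71 ± 0.10). Dusp2, a phosphatase of MAP kinases, rose by 1.01 on the log2 scale.

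Macrophage identity genes rose in 11 and fell in 3 of 15 measured, with a median of 0.90. C1qa, a chain of the complement protein C1q, had 801, 597 and 656 CPM in loaded, rHDL-treated cells, against 162, 101.1 and 111 CPM in rHDL-treated cells (2.46 ± 0.16). C1qb rose by 2.03 ± 0.13 and C1qc by 1.92 ± 0.13. Fcgr1, a high-affinity antibody receptor, had 825, 538 and 727 CPM, against 181, 95.1 and 115 CPM in rHDL-treated cells (2.42 ± 0.23). The transcription factor Maf (1.47 ± 0.09), which marks resident-type macrophages, and the apoptotic-cell receptor Mertk (1.62 ± 0.14) rose with them. Gpnmb (-0.59 ± 0.06), Cd68 (-0.44 ± 0.07, measured on 34.8% of its exon bases) and Cd14 (-0.24 ± 0.07) fell. None of the C1q genes passed for loading without rHDL, where C1qa averaged 834 ± 78.4 CPM in loaded cells and 652 ± 58.0 CPM with LPS alone.

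Summed over the macrophage list, levels were 30400 to 35300 CPM in loaded, rHDL-treated cells and 24300 to 26700 CPM in rHDL-treated cells, and 33500 to 35800 CPM in loaded cells without rHDL and 32900 to 35000 CPM with LPS alone. Summed markers of other cells were below those of the macrophage list. A 0 among them can come from reads missing from the counts. The neutrophil list summed to 6.05 to 8.75 CPM in loaded, rHDL-treated cells and 3.24 to 5.15 CPM in rHDL-treated cells, with S100a9, Mpo and Cxcr2 at 0 in both. S100a8 rose (0.73 ± 0.24, adjusted p = 0.0284) and lost its call without HDL_LPS replicate 3 (adjusted p = 0.111) or CL_HDL_LPS replicate 1 (0.149) and with the 6 libraries alone (0.0883). Mmp8 did not pass (0.66 ± 0.26, adjusted p = 0.0573). It did with the replicate number as a block (adjusted p = 0.0356), without the low-count filter (0.041) and without HDL_LPS replicate 2 (0.0351). The dendritic list, 2 of 5 measured genes higher and none lower, summed to 446 to 611 CPM in loaded, rHDL-treated cells and 359 to 447 CPM in rHDL-treated cells, with Clec9a and Siglech at 0 in both. Itgax of that list did not pass (-0.42 ± 0.20, adjusted p = 0.126). It was called lower with the block (adjusted p = 0.0377), without the low-count filter (0.0108) and with the 6 libraries alone (0.0141). Ccr7, with 35 counts in loaded, rHDL-treated cells and 18 in rHDL-treated cells, was called higher (adjusted p = 0.0324) but not without HDL_LPS replicate 1 (adjusted p = 0.109) or 2 (0.0778) or CL_HDL_LPS replicate 2 (0.189), nor with counts thinned to equal depth (0.0797) or scaling by library totals (0.0508).

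The lymphoid list summed to 2.82 to 3.83 CPM in loaded, rHDL-treated cells and 3.16 to 3.41 CPM in rHDL-treated cells, with Cd3e and Cd3g at 0, and its 1 measured gene, Cd4, did not pass. The list of mast cell, erythroid and platelet markers summed to 61.4 to 102 CPM in loaded, rHDL-treated cells and 32.4 to 43.4 CPM in rHDL-treated cells, with Kit, Hba-a1 and Hbb-bs at 0. That sum is nearly all Pf4, a platelet chemokine also made by macrophages, which rose (1.09 ± 0.16), as did Ppbp (2.62 ± 0.41). The stromal and endothelial list summed to 35 to 43.4 CPM in loaded, rHDL-treated cells and 108 to 135 CPM in rHDL-treated cells, with Pecam1, Pdgfrb and Lepr at 0. It is nearly all Vwf, von Willebrand factor, which had 33.0, 33.4 and 41.4 CPM, against 106, 120.5 and 133 CPM in rHDL-treated cells (-1.73 ± 0.12). The part of other cells in the changes above was not tested.

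Antioxidant genes fell. Of 19 such genes controlled by the factor NRF2, 2 rose and 13 fell, with a median of -0.56. Srxn1, sulfiredoxin, had 146, 168 and 159 CPM in loaded, rHDL-treated cells, against 359.8, 432 and 429 CPM in rHDL-treated cells (-1.37 ± 0.08). Its level was 152 ± 8.11 CPM in loaded cells without rHDL and 146 ± 8.34 CPM with LPS alone, and the loading effects differed by -1.43 ± 0.12. Gclm, of glutathione synthesis, fell by 1.27, Fth1, the ferritin heavy chain measured on 37.7% of its exon bases, by 1.20, and Slc7a11, the cystine importer, by 1.32 on the log2 scale. The genes that rose were Gsr (0.36 ± 0.08) and G6pdx (0.24 ± 0.06), which recycle glutathione and make NADPH, and G6pdx was not called with scaling by library totals (adjusted p = 0.0647).

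The unfolded protein response, which expands the folding capacity of the endoplasmic reticulum, fell in 10 and rose in 1 of 18 measured genes, with a median of -0.37, and with the block 12 fell. The riser, Edem1 (adjusted p = 0.0333), was not called with scaling by library totals (0.255), without the low-count filter (0.106) or with the 6 libraries alone (0.1). Nor was it called without HDL_LPS replicate 1 (0.077), 2 (0.0506) or 3 (0.0676) or CL_HDL_LPS replicate 1 (0.0711) or 3 (0.0798). Without rHDL the same list had a median of 0.42, with 11 genes higher and none lower, and the loading effect was more negative with rHDL for 11 of the 18. Hyou1, a chaperone of the reticulum, had 96.4, 112 and 107 CPM in loaded, rHDL-treated cells, against 147, 197 and 189 CPM in rHDL-treated cells (-0.75 ± 0.10), and 146 ± 3.88 CPM in loaded cells without rHDL, against 103 ± 4.61 CPM with LPS alone (0.50 ± 0.10). Dnajb9 changed by -1.11 ± 0.10 with rHDL and 0.51 ± 0.10 without, Creld2 by -0.61 ± 0.08 and 0.48 ± 0.09, and Calr, calreticulin, by -0.42 ± 0.06 and 0.43 ± 0.06. For Sdf2l1 the values were -0.41 ± 0.09 and 0.87 ± 0.09. All of these passed the test in both settings, with opposite signs.

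Lysosomal genes fell in 14 and rose in 2 of 23 measured, with a median of -0.38 (16 and 3 with the block), and 14 had a more negative loading effect with rHDL. Subunits of the proton pump fell together. Atp6v0d2, the macrophage form of its d subunit, had 83.2, 95.1 and 87.9 CPM in loaded, rHDL-treated cells, against 181, 211 and 210.0 CPM in rHDL-treated cells (-1.18 ± 0.11). Atp6v1a changed by -0.79 ± 0.07 and Atp6v0d1 by -0.71 ± 0.06. Mcoln1, a calcium channel of the lysosome, changed by -0.83 ± 0.08, the protease Ctsd by -0.43 ± 0.06, and Sqstm1, an autophagy receptor measured on 5.6% of its exon bases, by -1.19 on the log2 scale.

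The ATF4 list, of amino acid and integrated stress genes, rose in 6 and fell in 4 of 16 measured (18.5% and 17.1% of all genes), with a median of 0.15. Nupr1 had 249.9, 192 and 192 CPM in loaded, rHDL-treated cells, against 91.6, 68.4 and 70.9 CPM in rHDL-treated cells (1.46 ± 0.13), and Sesn2 and Chac1 rose by 0.98 ± 0.10 and 0.77 ± 0.11, while Gdf15 and Slc7a11 of the same list fell as given above. Of 13 heat shock genes 3 rose and 2 fell, near the 18.5% and 17.1% of all genes, with a median of -0.04, and with the block, or without CL_HDL_LPS replicate 1, 5 rose, while 4 fell with scaling by library totals. Hspa1a had 19.1, 15.2 and 18.6 CPM, against 5.37, 4.52 and 4.21 CPM in rHDL-treated cells (1.90 ± 0.22), and Hspa1b, a near-identical copy whose reads could be shared, rose by 1.80 ± 0.21. Without rHDL, Hspa1a averaged 64.7 ± 10.9 CPM in loaded cells and 66.7 ± 16.0 CPM with LPS alone. Hsp90aa1 fell (-0.61 ± 0.08).

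Lists of general metabolism and growth had medians near that of all genes. Glycolysis and hypoxia genes rose in 3 and fell in 2 of 14 measured (median 0.05, and -0.04 with scaling by library totals), with Bnip3 (0.75 ± 0.14) and Hk2 (-0.42 ± 0.06) as examples. Cell cycle genes rose in 3 and fell in 3 of 17 (median 0.04, and -0.05 with scaling by totals), among them the proliferation marker Mki67 (-0.71 ± 0.16) and Ccnd1 (0.87 ± 0.15). Immediate early genes rose in 3 and fell in 4 of 10 (median 0.01, and -0.08 with scaling by totals), beside 18.5% and 17.1% of all genes, with Fos (1.35 ± 0.17) and Maff (-1.68 ± 0.10) at the ends. Of 9 control genes 2 rose and 1 fell, with a median of 0.11, and with scaling by library totals 1 rose and 2 fell, with a median of 0.02. Hprt (0.29 ± 0.09, adjusted p = 0.0266) was not called with library totals (0.0831), with the 6 libraries alone (0.0874), or without HDL_LPS replicate 2 (0.109) or 3 (0.0781) or CL_HDL_LPS replicate 1 (0.119). With the block Rpl13a, a ribosomal protein gene, was called higher as well (0.22, adjusted p = 0.0272), as it was without HDL_LPS replicate 1 (0.0474) or CL_HDL_LPS replicate 3 (0.0441). Actb, beta-actin, is often used as a control and had 10518, 7645 and 9314 CPM in loaded, rHDL-treated cells, against 4537, 3651 and 3776 CPM in rHDL-treated cells (1.20 ± 0.13).

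Genes of matrix and adhesion rose in 7 and fell in 2 of 14 measured, with a median of 0.29, and with the block 8 rose and 4 fell. Mmp14, a membrane-bound metalloproteinase, had 809, 895 and 832 CPM in loaded, rHDL-treated cells, against 408, 341 and 357 CPM in rHDL-treated cells (1.20 ± 0.07). Mmp12, macrophage elastase, had 1523, 1718 and 1468 CPM, against 3761, 4589.9 and 4181 CPM in rHDL-treated cells (-1.41 ± 0.14). Mmp13, a collagenase, rose with rHDL (1.12 ± 0.09) and fell without it (-0.92 ± 0.09), a difference of 2.03 ± 0.12 (adjusted p = 1.71e-07). Thbs1, thrombospondin, rose by 1.85 ± 0.09. Of 12 prostaglandin and leukotriene genes 4 rose and 3 fell (18.5% and 17.1% of all genes), with a median of 0.32. Ptges, a prostaglandin E synthase, and Pla2g4a were among the risers, and Ptgs2 and Tbxas1 among those that fell.

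Several of the largest rises were outside the lipid lists. Aif1, an actin-binding protein of activated macrophages, had 29.99, 16.7 and 20.9 CPM in loaded, rHDL-treated cells, against 2.78, 1.74 and 1.43 CPM in rHDL-treated cells (3.48 ± 0.28). Fgl2, a fibrinogen-like protein, had 608, 500.1 and 656 CPM, against 80.3, 73.9 and 89.2 CPM in rHDL-treated cells (2.86 ± 0.15). Tgfbi, a matrix protein induced by TGF-beta, had 241, 217 and 244 CPM, against 40.0, 28.5 and 31.5 CPM in rHDL-treated cells (2.81 ± 0.15). Genes were named here only where the groups did not overlap, which held for 43.1% of all genes tested. Hpgd, which degrades prostaglandins, rose by 2.73 ± 0.25 and Apol7c, an apolipoprotein L, by 2.92 ± 0.30. Tgfbi and Hpgd did not pass the test for loading without rHDL (-0.25 ± 0.13 and -0.15 ± 0.21), where Apol7c (1.305 ± 0.25) and Fgl2 (0.61 ± 0.14) rose.

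The effects of loading with and without rHDL share no library and could be set against each other. Of the 3196 genes called with rHDL and the 768 called without, 482 were called in both, 15.1% of the genes called with rHDL and 62.8% of those called without. Among them 120 were higher in both and 113 lower in both, while 161 were higher with rHDL and lower without, and 88 lower with rHDL and higher without. Across the 8965 genes Pearson's r was 0.056 and Spearman's rho -0.093, given as a description, since genes are not independent replicates and share the fit.

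**Figure D4:**
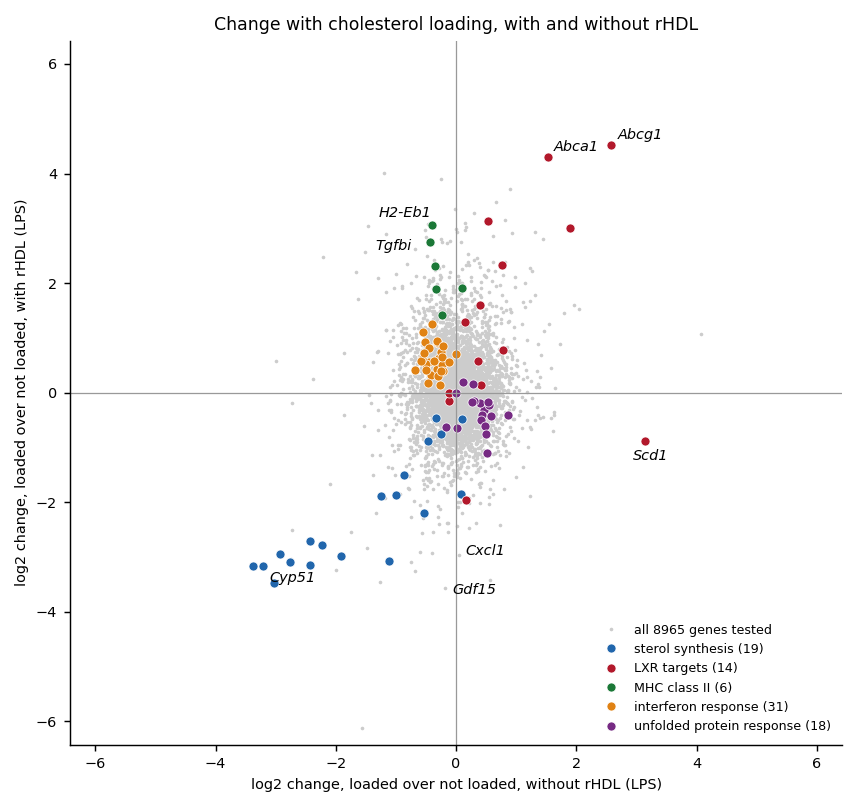
Log2 change with cholesterol loading for each of 8965 genes, with rHDL (vertical axis, loaded and rHDL-treated over rHDL-treated) against without rHDL (horizontal axis, loaded over LPS alone), members of 5 lists in colour. Abcg1 (4.52 with rHDL, 2.58 without) and Cyp51 (-3.16 and -3.20) move the same way in both, while Scd1 (-0.88 and 3.13) and the unfolded protein response genes (medians -0.37 and 0.42) do not.

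Genes that respond to LPS were followed as 2 sets taken from the separate table of LPS_only and Notr_Ctrl libraries. There, 1538 genes were called with a log2 rise of at least 1 and 1840 with a fall of at least 1 (16.1% and 19.2% of 9576 genes). Of the induced genes 1497 were measured in the loading comparison, and 686 were higher (45.8%) and 191 lower (12.8%) in loaded, rHDL-treated cells than in rHDL-treated cells, beside 18.5% and 17.1% of all genes. Their median log2 change was 0.27. Of the repressed genes 1373 were measured, with 142 higher (10.3%), 268 lower (19.5%) and a median of -0.08. Without rHDL the medians had the opposite signs, -0.13 for induced and 0.12 for repressed genes. In the induced set the 2 directions hold different genes, such as Oas3, Vcam1 and Fgl2 among the higher, and Cxcl1, Il12b and Gdf15 among the lower.

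**Figure D5:**
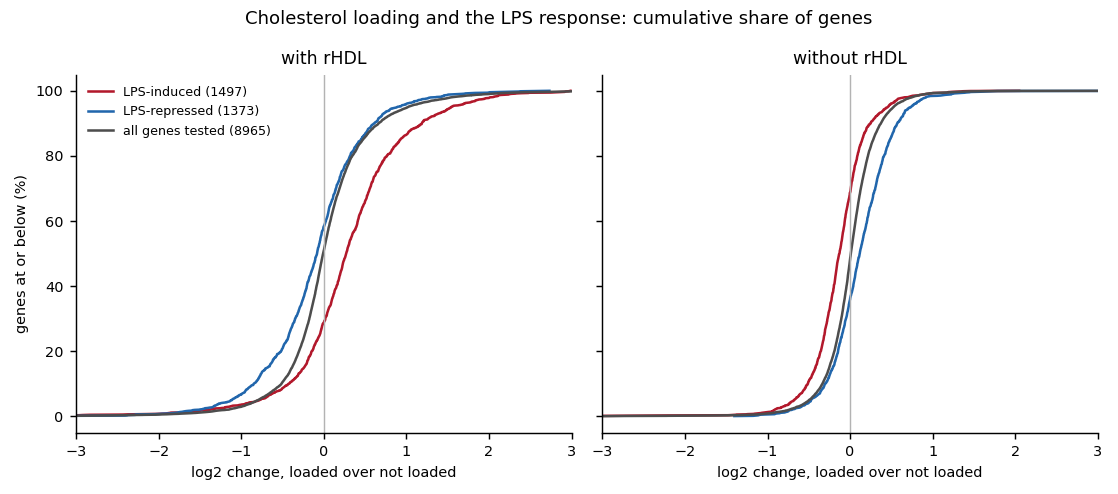
Cumulative share of genes (%) by log2 change with loading, with rHDL (left) and without rHDL (right), for LPS-induced genes, LPS-repressed genes and all genes tested, on an axis from -3 to 3. With rHDL the induced genes lie to the right of all genes (median 0.27), and without rHDL to the left (median -0.13).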

How the data were processed

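Poly(A)-selected RNA of mouse bone marrow-derived macrophages was sequenced. Per the submitters' processing notes, cutadapt, HISAT2, Subread, featureCounts and DESeq2 were used with build mm10, their versions not stated there. The deposited counts are whole-number read counts that the authors did not normalise, for 32850 rows and 24059 gene symbols. The 6696 rows that share every exon base with another row had 0 counts, so reads shared between rows are missing. Of 4 deposited tables, 2 were used, and the authors' comparison tables were not.

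Rows of a symbol were added up, and edgeR 4.0.16 under R 4.3.3 was run on the sums, with filterByExpr with a minimum count of 10, TMM, and quasi-likelihood F tests on 4 group means over the 12 libraries of the second table, with Benjamini-Hochberg adjustment over all genes tested. The LPS comparison was fitted in its own table. Totals per library were 9464916 to 15607889 in the second table and 11450243 to 16835472 in the first. Intervals of ratios cover counting error only. The fits were tested on simulated data.

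Same-numbered libraries of the 2 compared groups deviated together from their group means (r = 0.436, 0.283 and 0.177). Over all 4 groups of the fit the lowest such correlation was -0.0302, in replicate 3. The replicate numbers, taken from the labels, were thus not taken to pair all the libraries fitted. The main fit had no block, and its values are those printed unless the block is named. The blocked value stands beside a printed gene whose call it changes and a count it moves by over 1.5 times.

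The comparison and the gene lists were chosen with earlier results of these data known. Genes were named as the top 12 in each direction by size of change, if called, with no overlap between the groups, not a predicted gene or clone, at log2 CPM 3 or more on average and measured on 20% or more of their exon bases, as the best 4 members per list by p, as the best 8 by p of the difference, and as a set panel. A part of them is printed, and other list members were named after their values were seen. Alternatives were DESeq2 1.42.0, its size factors, library totals, 2 other filters, the block, rows tested singly, genes with at least 80% unshared exon bases, the 6 libraries alone, a minimum of 1.5-fold, thinned counts, stricter LPS sets and leaving out each library. Some genes are not reported here.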

Additional observations from a re-analysis of the deposited data

Results flagged for a closer look

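The effect of cholesterol loading differed between cells with and without rHDL for 2704 of 8965 genes, tested as the difference of the 2 effects in 1 edgeR fit (30.2%). Of 145 named genes 121 had such a difference. Many were named by size or p of the loading change, and some by p of this difference. Their share is therefore no separate support. By p of that difference the first 8 were Abcg1 (1.94), Abca1 (2.77), Gdf15 (-3.39), Tgfbi (3.06), Cxcl2 (-2.44), Dgka (1.72), Gda (1.71) and Mmp13 (2.03), each as the log2 effect with rHDL minus that without.

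Loading had called effects of opposite sign in the 2 settings for 17 named genes. Those with a more positive effect with rHDL, beside Dgka, Gda and Mmp13, were Cd86 (1.82), S100a8 (1.65), Il4ra (1.61), Oas3 (1.28), Nlrc5 (1.08) and Ccnd2 (1.03). The call of S100a8 with rHDL was lost with the 6 libraries alone and without HDL_LPS replicate 3 or CL_HDL_LPS replicate 1, as given above. Those with a more negative effect were Scd1 (-4.01), Ccl2 (-2.59), Il12b (-1.63), Dnajb9 (-1.62), Atp6v0d2 (-1.61), Hyou1 (-1.25), Creld2 (-1.08) and Calr (-0.85). The differences are log2 values from libraries that all received LPS, and their causes were not tested.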

How the results depend on the processing

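Of the alternatives tried, 1 moved the count of 3196 genes by more than 1.5 times: with a minimum change of 1.5-fold in the test, 681 genes were called (415 higher and 266 lower). It was 3052 with DESeq2, and 2507 to 3313 when 1 library was left out, while the count for the difference, 2704, was 2112 to 2822. Scaling by library totals gave 39.4% of calls as higher, against 51.9% with TMM, and for the difference 1016 genes more positive and 2124 more negative (32.4% against 53%, median -0.20). With LPS sets at a log2 change of at least 2, the median of induced genes was 0.42. With the replicate block 3886 genes were called, and for the difference 3443. There, the numbers share less, with a lowest correlation of -0.0302 in replicate 3 over the 4 groups, and 10 of 12 libraries correlated best with their own number. Beyond Il6, Itgax, Mmp8, Rpl13a, Srebf1, Npc2, Rsad2 and Ifit1 the block changed no call among printed genes in the loading comparison. Of 145 genes named by rule 52 changed call or sign under some setting. Estimates that did not pass changed sign for Cd4, with 0.12 after thinning and a range of -0.17 to 0.045 over single libraries left out, for Col1a2 (-2.01 to 0.25) and for Il10 (-0.29 to 0.018). The causes were not tested. Low counts limit Fads2, Fdps, Ccr7 and Scarb1.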
